A study of Mus musculus with 26 samples.

Results

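The genes described here are 37 genes of the lysosome and of autophagy, followed in 3 murine lung cancer cell lines during inhibition of the ALK kinase. They were chosen by name, as the rows of the deposited count table whose symbol, ignoring capital letters, is on a list of 37 members. All 37 were found among 55391 named rows, and all 37 passed the filter on low counts, which left 14264 genes tested. The lines EA1, EA2 and EA3 carry an Eml4-Alk fusion made in C57BL/6 mice by an adenovirus with Cas9 and guides to Eml4 and Alk. EA1 came from a Trp53 wild-type mouse, and EA2 and EA3 came from Trp53 null mice. Each is 1 line, so that a difference between lines is a difference between 3 isolates. Cells grew in 10 cm dishes with 0.1% DMSO (DMSO-control) or 100 nM alectinib, an ALK tyrosine kinase inhibitor (TKI), for 1, 2, 3 or 5 days, and poly(A) RNA was sequenced. There was 1 library for each line, treatment and day, which gives 24 libraries with 5780062 to 11732401 counts. The 4 days of a group stood in as its replicates, so that the spread over days holds both error and any change with time, and nothing in the labels says that days came from separate cultures. A pair of libraries labelled EA3 day 7 was kept out of every comparison and used only in an alternative fit with all 26 libraries, since its profile was closer to EA2 than to EA3.

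Lysosomes are acidic compartments in which proteins, glycans and lipids are taken apart by hydrolases. A vacuolar proton pump (V-ATPase) keeps the lumen acidic, and a coat of glycoproteins such as LAMP1 and LAMP2 lines the membrane. Autophagy delivers cytoplasm to them: a kinase complex starts an isolation membrane, ubiquitin-like ATG8 proteins are joined to its lipids, and receptors bring cargo. The MiT transcription factors TFEB, TFE3 and MITF bind E-box sequences in the promoters of many of these genes, and they are held in the cytoplasm while mTORC1 is active at the lysosome. Drugs that block growth factor signalling are known to raise autophagy in many tumour cells.

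In all 3 lines more of the 37 genes rose with alectinib than fell. In EA1, 18 rose and 0 fell, where 19.0% of all genes tested rose and 14.6% fell. At an unadjusted p under 0.05 by edgeR, 1 gene (Ctsl) was lower in EA1, and DESeq2 called the same 1. In EA2, 14 rose and 4 fell, against 13.0% and 11.3% of all genes. In EA3, 16 rose and 2 fell, against 17.5% and 15.1%. Without day 2, 9 rose in EA2 and 10 in EA3, where 8.60% and 9.99% of all genes did, and EA3 fitted alone had 10 rising, where 12.6% did. With a log2 change of at least 1 as well, 3, 3 and 5 of the 37 rose in EA1, EA2 and EA3, where 11.7%, 6.67% and 9.91% of all genes did, close to the shares of the 37. Medians over the 37, as log2 fold changes, were 0.53 for EA1, 0.25 for EA2 and 0.39 for EA3, beside 0.07, 0.00 and 0.07 over all genes. Rose and fell are used for an adjusted p under 0.05 in edgeR's quasi-likelihood test, with the line and day as a block and Benjamini-Hochberg adjustment over all 14264 genes. Averaged over the lines, 23 rose and 2 fell, where 26.6% and 23.5% of all genes did so. Of the 37, 10 rose in each of the 3 lines, as did 5.78% of all genes, and 0 fell in each of the 3 lines, as did 4.23%.

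Those 10 were Lamp1 and Lamp2 of the lysosomal membrane, the protease Ctsa, the glycosidase subunit Hexa, the luminal proteins Psap and Grn, the proton pump subunits Atp6v0d1 and Atp6v1h, the ATG8 protein Map1lc3b and the autophagy kinase Ulk1. For Lamp1, Lamp2, Ctsa, Psap, Grn and Atp6v0d1, which are 6, the call held in all 3 lines, at an adjusted p under 0.05 against no change, under each of 12 alternatives to the fit, filter, scaling or days. The CPM (counts scaled to library size and TMM factor) of 14 of 37 genes was higher with alectinib than with DMSO on all 12 line and day pairs, where 9.41% of all genes were, and that of 2 of 37 (Mitf and Ctsl) was lower on all 12, where 6.86% were. In at least 1 line 22 of the 37 rose, where 29.5% of all genes did, and 5 fell, namely Tfeb, Mitf, Ctsl, Naglu and Neu1, where 24.8% did. Another 10 passed the threshold in none of the 3 lines, as did 46.8% of all genes: Tfe3, Npc1, Ctsb, Ctsh, Gla, Gaa, Gusb, Glb1, Atg5 and Sqstm1.

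**Figure D1:**
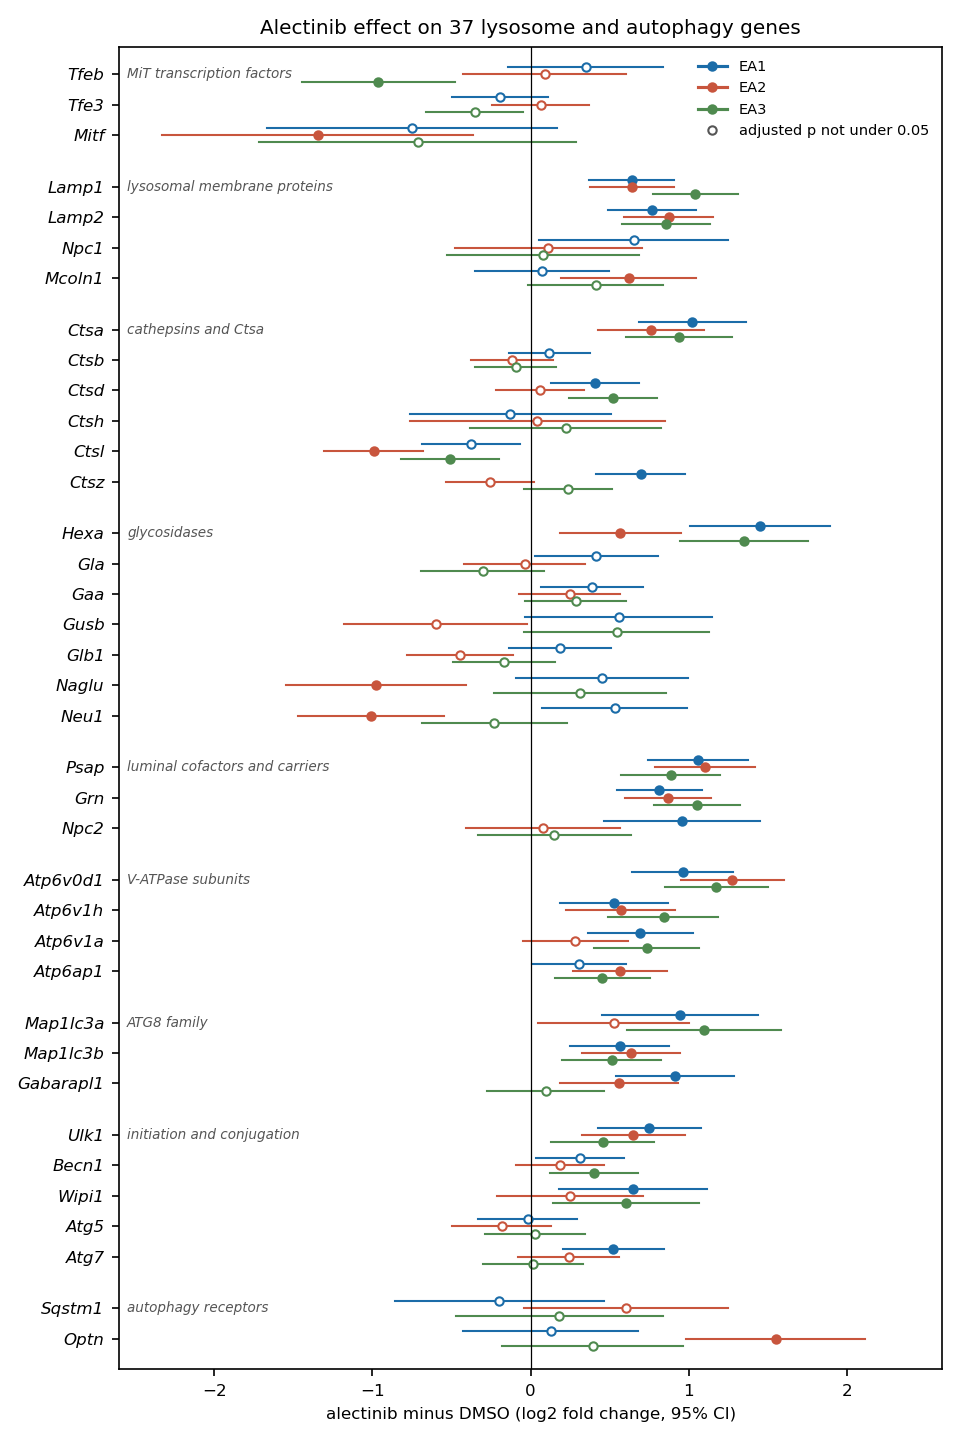
Log2 fold change of alectinib against DMSO (x axis) for each of the 37 genes (y axis, grouped by role) in EA1, EA2 and EA3, with 95% confidence intervals from edgeR. Filled points passed an adjusted p of 0.05, and 10 genes have 3 filled points to the right of 0.

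Markers of other cells moved as well, and their part in these changes was not tested. The summed CPM of 8 fibroblast markers was 9.08 to 44.1 in EA1 with DMSO and 126 to 478 with alectinib, 58.5 to 71.5 and 122 to 240.0 in EA2, and 10.2 to 20.2 and 84.8 to 274 in EA3. Of the 6 of these 8 that could be tested, 5, 3 and 5 rose in the respective lines. Thy1 was at or under 3 counts in every library, and Lum was so in every library of EA2 and EA3 and in EA1 with DMSO. Col3a1, a fibrillar collagen, was at 1.35 ± 0.687 CPM (SD, n = 4 days) in EA1 with DMSO and 142 ± 89.9 with alectinib, and Dcn, a matrix proteoglycan, was at 0, 0.117, 0 and 0.165 CPM in EA3 with DMSO and 0.739, 3.82, 2.92 and 48.4 with alectinib on days 1, 2, 3 and 5, so that day 5 was far above the other days. Of 9 macrophage markers, C1qa, C1qb, Tyrobp, Adgre1 and Itgam stayed at or under 3 counts in every library, and the sum, 83.8 to 269 CPM with DMSO and 2.25 to 25.1 with alectinib, was mostly Mrc1, a mannose receptor that fell (log2 -4.000 averaged over the lines, SE 0.25, adjusted p = 6.35e-08). Csf1r, the receptor of a macrophage growth factor, was at 0 in every library of EA1, at 1.30 ± 1.01 CPM (SD, n = 4 days) with DMSO and 3.43 ± 2.32 with alectinib in EA3, and passed the threshold in none of the 3 lines. The sum of 9 epithelial markers was 1810.0 to 9250.0 CPM with DMSO and 567 to 7240.0 with alectinib, mostly from Krt8, Krt18, Krt19 and Cdh1. Of the 7 that could be tested, 1 rose in each line, and 1, 2 and 1 fell in EA1, EA2 and EA3. Epcam was at 1.35 ± 1.36 CPM (SD, n = 4 days) in EA1 with DMSO and 6.54 ± 1.37 with alectinib. In EA2 it was at 0.494 ± 0.152 and 0, and in EA3 at 132 ± 60.1 and 125 ± 25.3. Cldn4 and Cldn7 had means of 0.291 CPM or less in EA1 and EA2, and of 123 and 61.0 in EA3 with DMSO. The surfactant gene Sftpc was at or under 3 counts in every library. Nkx2-1, a lung lineage factor, was at or under 3 counts in every library but that of EA3 with alectinib on day 5, at 0.757 CPM. Cdh1, which encodes E-cadherin, rose in EA2 and EA3 but did not pass in EA1 (log2 0.29 for EA1, 1.55 for EA2 and 0.65 for EA3), the keratin Krt18 fell in each line (-1.51 for EA1, -1.79 for EA2 and -1.12 for EA3), and Krt8 fell in EA2 but did not pass in EA1 or EA3 (-0.52 for EA1, -2.61 for EA2 and -0.45 for EA3). In bulk RNA a change in the share of a cell type and a change per cell cannot be told apart.

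Of 8 genes that MAPK signalling is known to maintain, 7, 8 and 7 fell in EA1, EA2 and EA3, where 14.6%, 11.3% and 15.1% of all genes did. Their median log2 fold changes were -2.36, -4.11 and -2.61. The effect differed between lines for 5 of the 8, where 6.84% of all genes did. Without day 2, 3 or 5 the difference did not pass for Spry4 (adjusted p = 0.159, 0.307 and 0.13) or Etv5 (0.0788, 0.129 and 0.0758). Spry4, a feedback inhibitor of the pathway, went from 67.2 ± 20.8 to 3.62 ± 1.79 CPM in EA1, and Etv5, an ETS transcription factor, from 123 ± 10.8 to 1.20 ± 0.883 CPM in EA2 (SD, n = 4 days).

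Since several of the 37 genes moved together, their promoters were searched for the core sequence that MiT factors are known to bind. The letters CACGTG, which read the same on both strands, were looked for in RefSeq promoters of build GRCm38.p6, each from 250 bases before to 50 bases after the start site, 300 bases in all. A promoter was found for 31 of 37 genes, all but Npc1, Ctsb, Ctsh, Atp6v1h, Map1lc3a and Becn1. CACGTG was present in 13 of the 31 (41.9%), and in 8.09% of 27025 genes with a promoter. The longer TCACGTGA, which contains CACGTG and also reads the same on both strands, was present in 6 of the 31 (19.4%) and in 1.12% of all genes. A match is a description of the letters and does not show that a factor binds. The stretches that follow hold every match of TCACGTGA among the 31, and those of CACGTG in Lamp1, the member with the most copies of the shorter motif. A further CACGTG of Ctsd, at -245 from its start site, lies outside the stretch shown. Each is printed from 5′ to 3′ on the strand of the gene, with CACGTG or TCACGTGA in capitals, and is shown so that the letters can be read beside the changes given further on.
Lamp1: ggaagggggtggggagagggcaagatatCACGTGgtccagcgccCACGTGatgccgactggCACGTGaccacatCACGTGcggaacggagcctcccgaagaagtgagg
Mcoln1: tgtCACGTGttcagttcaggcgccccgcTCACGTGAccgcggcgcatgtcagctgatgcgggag
Ctsa: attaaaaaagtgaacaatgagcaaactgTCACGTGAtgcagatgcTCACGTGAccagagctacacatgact
Ctsd: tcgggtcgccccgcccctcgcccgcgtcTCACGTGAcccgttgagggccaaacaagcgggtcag
Gla: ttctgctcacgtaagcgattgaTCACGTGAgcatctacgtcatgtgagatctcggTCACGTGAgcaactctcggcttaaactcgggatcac
Atp6v0d1: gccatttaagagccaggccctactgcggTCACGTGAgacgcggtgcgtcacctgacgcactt
Atp6v1a: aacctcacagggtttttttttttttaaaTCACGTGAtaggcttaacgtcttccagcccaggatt

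These stretches lie at chr8:13159072-13159179 (+ strand) for Lamp1, chr8:3500445-3500508 (+) for Mcoln1, chr2:164833732-164833802 (+) for Ctsa, chr7:142387891-142387954 (-) for Ctsd, chrX:134601165-134601255 (-) for Gla, chr8:105566035-105566096 (-) for Atp6v0d1 and chr16:44139356-44139419 (-) for Atp6v1a, all in GRCm38, the sequence that mm10 also holds. Lamp1 had 4 copies of CACGTG, at -61, -45, -28 and -15 from the start site. The match and the change did not always go together. Ctsa, with 2 copies of TCACGTGA, and Atp6v0d1, with 1, rose in all 3 lines. Gla, also with 2 copies, passed the threshold in none (0.42 for EA1, -0.04 for EA2 and -0.30 for EA3 on the log2 scale). Of the genes with CACGTG but not TCACGTGA, Lamp1 rose in all 3 lines and Atg7 in EA1. Gaa, Glb1 and Atg5, also with CACGTG, passed in none, and Ctsl and Naglu, with it too, fell in at least 1 line. Psap, Grn, Lamp2, Hexa, Map1lc3b and Ulk1 rose in all 3 lines and had neither motif in these 300 bases.

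Of the 3 MiT transcription factors, Tfeb fell in EA3 and Mitf in EA2, where 24.8% of all genes fell in at least 1 line, and Tfe3 passed the threshold in none. Tfeb (chr17:47737030-47792419, build GRCm38 or mm10, GENCODE vM21, as for all positions of genes given here) is the member best known as a regulator of lysosomal genes. Tfeb CPM in EA1 was 10.98, 21.4, 9.94 and 15.8 with DMSO and 12.5, 17.9, 21.2 and 20.5 with alectinib, on days 1, 2, 3 and 5 in this order, as in all sentences of this kind. Tfeb CPM in EA2 was 4.93, 4.90, 10.2 and 6.36 with DMSO and 3.36, 7.60, 9.70 and 8.20 with alectinib. Tfeb CPM in EA3 was 15.7, 32.8, 37.2 and 34.4 with DMSO and 9.88, 14.2, 17.6 and 18.6 with alectinib. In EA3 the alectinib library was the lower one on every day, with daily log2 ratios of -0.67, -1.21, -1.08 and -0.89, although the ranges of the groups overlapped through day 1 of DMSO. The fitted change on the log2 scale was 0.35 (SE 0.23, adjusted p = 0.251) for EA1, 0.09 (SE 0.24, adjusted p = 0.822) for EA2 and -0.96 (SE 0.23, adjusted p = 0.00557) for EA3. The difference between the lines passed the threshold (2 degrees of freedom, adjusted p = 0.044), where 6.84% of all genes did, yet not without day 1, 2, 3 or 5, at adjusted p of 0.0544, 0.0902, 0.194 and 0.204. Between EA3 and EA1 the effects differed by -1.31 (95% CI -1.997 to -0.62, adjusted p = 0.0556).

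Tfe3 (chrX:7762560-7775202) is a close relative of Tfeb that is widely expressed. Tfe3 CPM in EA1 was 74.99, 90.2, 94.7 and 78.97 with DMSO and 68.3, 79.2, 77.6 and 70.9 with alectinib. Tfe3 CPM in EA2 was 83.2, 85.02, 99.5 and 88.6 with DMSO and 99.9, 83.8, 108 and 82.3 with alectinib. Tfe3 CPM in EA3 was 59.04, 61.00, 96.98 and 90.6 with DMSO and 56.8, 60.7, 53.5 and 64.3 with alectinib. The ranges of the groups overlapped in each line. The log2 fold change of Tfe3 was -0.19 (SE 0.14, adjusted p = 0.312) for EA1, 0.06 (SE 0.14, adjusted p = 0.787) for EA2 and -0.35 (SE 0.14, adjusted p = 0.0748) for EA3, and none passed the threshold. Mitf (chr6:97807052-98021349), the melanocyte member of the family, was near the limit of what these libraries show, with 1 to 62 counts a library. Mitf CPM in EA1 was 2.20, 2.12, 6.63 and 4.01 with DMSO and 1.16, 1.96, 3.21 and 2.18 with alectinib. Mitf CPM in EA2 was 1.97, 2.82, 4.01 and 2.49 with DMSO and 0.889, 0.177, 2.37 and 1.35 with alectinib. Mitf CPM in EA3 was 1.26, 1.17, 1.98 and 1.81 with DMSO and 0.277, 0.872, 1.32 and 1.73 with alectinib. It was lower with alectinib on all 12 line and day pairs. Averaged over the lines Mitf fell by 0.94 on the log2 scale (SE 0.26, adjusted p = 0.00853). Of the single lines it passed in EA2 (-1.35, SE 0.46, adjusted p = 0.0463), and there it no longer did without day 1, 2, 3 or 5, with adjusted p of 0.0994, 0.161, 0.114 and 0.094. The lowest library, EA2 with alectinib on day 2, held 1 count. These are transcript levels, and where the proteins were in the cell was not measured.

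Of 4 lysosomal membrane genes, Lamp1 and Lamp2 rose in all 3 lines. Lamp1 (chr8:13159161-13175338) encodes a major glycoprotein of the lysosomal membrane. Lamp1 CPM in EA1 was 616, 704, 649 and 624 with DMSO and 1007, 1043, 1013 and 971 with alectinib. Lamp1 CPM in EA2 was 472, 579.5, 583 and 517 with DMSO and 629, 864, 883 and 1016 with alectinib. Lamp1 CPM in EA3 was 414, 408, 329 and 397 with DMSO and 709.8, 943, 709 and 830.1 with alectinib. In each line all 4 alectinib libraries lay above all 4 DMSO libraries. On the log2 scale, the fitted difference was 0.64 (SE 0.12, adjusted p = 0.00179) for EA1, 0.64 (SE 0.12, adjusted p = 0.00216) for EA2 and 1.04 (SE 0.12, adjusted p = 7.27e-05) for EA3, which is 1.56, 1.58 and 2.06 times the DMSO mean. In 9.3% of its exon bases Lamp1 overlaps Grtp1 on the other strand.

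Lamp2 (chrX:38401357-38456454) encodes a second such glycoprotein, needed for autophagosomes to mature. Lamp2 CPM in EA1 was 185, 223, 288 and 330.4 with DMSO and 398, 423, 452 and 431 with alectinib. Lamp2 CPM in EA2 was 234, 282, 326 and 314 with DMSO and 436, 476, 681 and 537 with alectinib. Lamp2 CPM in EA3 was 125, 172, 156 and 229.5 with DMSO and 233, 331, 254 and 417 with alectinib. Again the groups did not overlap in any line. Between alectinib and DMSO, the log2 fold change of Lamp2 was 0.77 (SE 0.13, adjusted p = 0.000747) for EA1, 0.87 (SE 0.13, adjusted p = 0.000316) for EA2 and 0.86 (SE 0.13, adjusted p = 0.000347) for EA3. The test between lines gave an adjusted p of 0.893, and EA2 minus EA1 was 0.11 with a 95% CI of -0.28 to 0.50. Of the other members of the membrane group, Mcoln1, a lysosomal calcium channel, rose in EA2 (0.62, SE 0.20, adjusted p = 0.0348), a call that was lost without day 1, 2 or 3 (adjusted p = 0.165, 0.125 and 0.0694). Npc1, which exports cholesterol, had log2 fold changes of 0.65 for EA1, 0.11 for EA2 and 0.08 for EA3 and passed in none.

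Among the proteases the responses went in both directions. Ctsa (chr2:164832873-164841032), a carboxypeptidase that also stabilises the sialidase NEU1 and β-galactosidase, rose in every line. Ctsa CPM in EA1 was 74.7, 118, 63.1 and 91.4 with DMSO and 182, 159, 175 and 169.8 with alectinib. Ctsa CPM in EA2 was 132, 145, 224 and 194 with DMSO and 228, 274, 371 and 295 with alectinib. Ctsa CPM in EA3 was 109, 175, 138 and 229 with DMSO and 232, 338, 288 and 358 with alectinib. In all 3 lines the lowest alectinib library stood above the highest DMSO library. Fitted by edgeR, the log2 fold change of Ctsa was 1.02 (SE 0.16, adjusted p = 0.000382) for EA1, 0.76 (SE 0.15, adjusted p = 0.00293) for EA2 and 0.94 (SE 0.16, adjusted p = 0.000642) for EA3. Neurl2 and Pltp on the other strand share 17.4% of its exon bases.

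Ctsz (chr2:174427493-174439039), a cysteine carboxypeptidase, had effects that differed between lines. Ctsz CPM in EA1 was 33.2, 48.4, 45.4 and 42.01 with DMSO and 46.9, 70.4, 78.6 and 81.02 with alectinib. Ctsz CPM in EA2 was 148, 165, 207 and 163 with DMSO and 124, 157, 151 and 137 with alectinib. Ctsz CPM in EA3 was 164, 251, 166 and 263 with DMSO and 182, 235, 239 and 339.9 with alectinib. Alectinib libraries were higher than the DMSO library of the same day on 4 of 4 days in EA1 and lower on 4 of 4 days in EA2. The fitted change on the log2 scale was 0.70 (SE 0.13, adjusted p = 0.00149) for EA1, -0.26 (SE 0.13, adjusted p = 0.168) for EA2 and 0.24 (SE 0.13, adjusted p = 0.179) for EA3. The test between lines gave an adjusted p of 0.0194, and EA2 minus EA1 was -0.95 (95% CI -1.35 to -0.56, adjusted p = 0.00981). Without day 1, 2, 3 or 5 the difference between lines had an adjusted p of 0.0646, 0.0615, 0.146 and 0.15. Without the block of line and day, 1 gene of the 37, Optn, differed between lines, and none of Tfeb, Ctsz, Naglu and Neu1 did (adjusted p = 0.157, 0.105, 0.114 and 0.0735).

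Ctsl, a cysteine endopeptidase, was the cathepsin that fell, singled out here after its values were seen. Ctsl CPM in EA1 was 443, 557, 893 and 625 with DMSO and 398, 508, 534 and 451 with alectinib. Ctsl CPM in EA2 was 1198, 1418, 1711 and 1357 with DMSO and 694, 774, 865 and 543 with alectinib. Ctsl CPM in EA3 was 469, 675, 681 and 887 with DMSO and 341, 470.3, 571 and 512 with alectinib. It was lower on all 12 line and day pairs, and in EA2 the groups did not overlap. The log2 fold change of Ctsl was -0.37 (SE 0.14, adjusted p = 0.06) for EA1, -0.99 (SE 0.14, adjusted p = 0.000274) for EA2 and -0.51 (SE 0.14, adjusted p = 0.0161) for EA3. The call in EA3 was lost without day 1, 2 or 5 (adjusted p = 0.0548, 0.0657 and 0.0949). Gm47123 on the other strand covers 26.8% of the exon bases of Ctsl and Gm49230 on its own strand 6.1%. Of the rest, the aspartic protease Ctsd rose in EA1 (0.41, SE 0.13, adjusted p = 0.0269) and EA3 (0.52, SE 0.13, adjusted p = 0.00783), and 34.4% of its exon bases are shared with Gm49369 on the same strand. In EA1 the Ctsd call was lost without any single day (adjusted p from 0.0754 without day 2 to 0.224 without day 3), and in EA3 without day 1 (0.0756) or day 2 (0.0535). The cysteine proteases Ctsb (0.12 for EA1, -0.12 for EA2 and -0.09 for EA3) and Ctsh (-0.13 for EA1, 0.04 for EA2 and 0.22 for EA3) passed in no line.

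Over the 7 glycosidases, the middle log2 fold change was 0.45 for EA1, -0.45 for EA2 and 0.29 for EA3. Hexa (chr9:59539540-59565109) encodes the α subunit of β-hexosaminidase, which trims gangliosides. Hexa CPM in EA1 was 3.03, 5.01, 2.35 and 5.30 with DMSO and 6.56, 10.4, 11.9 and 13.7 with alectinib. Hexa CPM in EA2 was 44.5, 56.6, 116 and 81.3 with DMSO and 71.6, 87.3, 156 and 118 with alectinib. Hexa CPM in EA3 was 3.14, 17.4, 18.3 and 32.3 with DMSO and 10.5, 32.8, 43.1 and 95.3 with alectinib. Every alectinib library was above the DMSO library of its line and day, and in EA1 the groups did not overlap. On the log2 scale, the fitted difference of Hexa was 1.45 (SE 0.21, adjusted p = 0.000221) for EA1, 0.57 (SE 0.18, adjusted p = 0.0317) for EA2 and 1.35 (SE 0.19, adjusted p = 0.000201) for EA3. In EA2 the call was lost without day 1, 2 or 5 (adjusted p = 0.109, 0.0923 and 0.0961), and without the block of line and day the adjusted p was 0.0634 for EA1, 0.517 for EA2 and 0.0616 for EA3. The counts behind the EA1 DMSO values were 22 to 45 a library. Tmem202 on the other strand shares 12.8% of the exon bases.

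Neu1 (chr17:34931253-34935953), the lysosomal sialidase, and Naglu (chr11:101070012-101077672), which removes N-acetylglucosamine from heparan sulfate, fell in EA2 and passed the threshold in neither other line. Neu1 CPM in EA1 was 31.6, 42.8, 36.98 and 55.3 with DMSO and 52.01, 62.95, 64.00 and 57.98 with alectinib. Neu1 CPM in EA2 was 46.7, 71.5, 104 and 82.8 with DMSO and 31.3, 28.1, 57.1 and 34.7 with alectinib. Neu1 CPM in EA3 was 56.98, 156, 128 and 202 with DMSO and 91.9, 120.0, 94.6 and 119 with alectinib. In EA1 the Neu1 value with alectinib was above DMSO on 4 of 4 days and in EA2 below it on 4 of 4 days. Between alectinib and DMSO, the log2 fold change of Neu1 was 0.53 (SE 0.21, adjusted p = 0.0683) for EA1, -1.01 (SE 0.21, adjusted p = 0.00396) for EA2 and -0.23 (SE 0.21, adjusted p = 0.433) for EA3. Its effects differed between lines (adjusted p = 0.021), with EA2 minus EA1 at -1.54 (95% CI -2.19 to -0.89, adjusted p = 0.0107). Without day 2, 3 or 5 the adjusted p of the difference was 0.116, 0.149 and 0.0703.

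Naglu CPM in EA1 was 26.5, 34.2, 18.1 and 43.04 with DMSO and 30.8, 40.8, 42.7 and 47.00 with alectinib. Naglu CPM in EA2 was 16.1, 19.9, 49.3 and 27.2 with DMSO and 15.3, 12.7, 20.1 and 7.31 with alectinib. Naglu CPM in EA3 was 20.3, 32.8, 23.9 and 41.4 with DMSO and 24.3, 33.9, 38.96 and 48.8 with alectinib. In EA2 the daily log2 ratios of Naglu were -0.07, -0.65, -1.30 and -1.90. Fitted by edgeR, the log2 fold change was 0.45 (SE 0.25, adjusted p = 0.182) for EA1, -0.98 (SE 0.27, adjusted p = 0.0157) for EA2 and 0.31 (SE 0.25, adjusted p = 0.365) for EA3. Between lines the adjusted p was 0.047, with EA2 minus EA1 at -1.43 (95% CI -2.22 to -0.64, adjusted p = 0.0361). Leaving out day 2, 3 or 5 gave 0.108, 0.27 and 0.196 for the difference. The fall in EA2 itself was lost without day 3 (adjusted p = 0.0729) or day 5 (0.11). No line passed for Gla (α-galactosidase), Gaa (acid α-glucosidase), Gusb (β-glucuronidase) or Glb1 (β-galactosidase), whose log2 fold changes ran from -0.60 (Gusb in EA2) to 0.56 (Gusb in EA1).

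**Figure D2:**
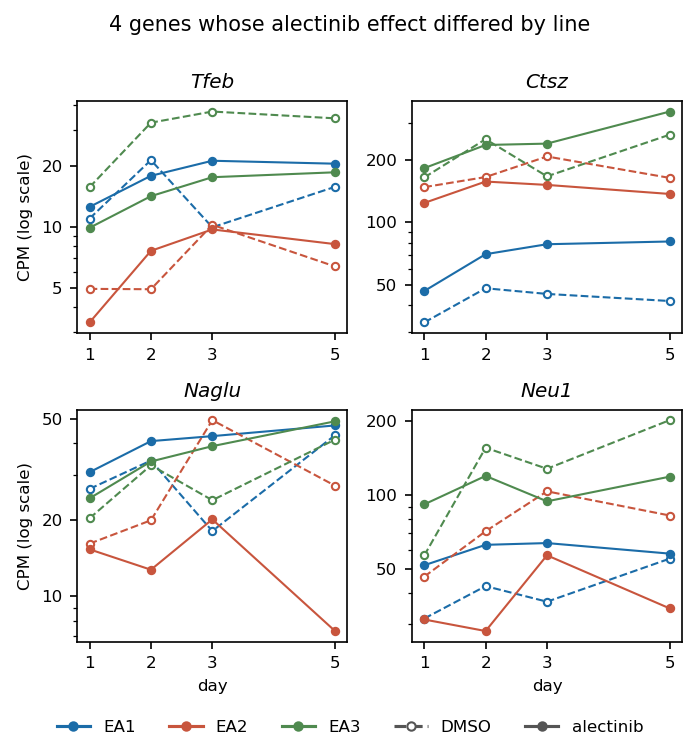
CPM on a log scale (y axis) by day (x axis) of Tfeb, Ctsz, Naglu and Neu1, the 4 genes whose alectinib effect differed between lines, with DMSO as open points on broken lines and alectinib as filled points. Tfeb with alectinib lies under DMSO on each day in EA3, and Ctsz and Neu1 with alectinib lie above DMSO on each day in EA1 and under it in EA2.

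Of the 3 luminal cofactors and carriers, Psap and Grn rose in all 3 lines. Psap (chr10:60277627-60302597) encodes the precursor of the saposins, which present lipids to hydrolases. Psap CPM in EA1 was 447, 564, 434 and 682 with DMSO and 841, 1064, 1281 and 1235 with alectinib. Psap CPM in EA2 was 582, 618, 1022 and 836 with DMSO and 1250.0, 1487, 2551 and 1387 with alectinib. Psap CPM in EA3 was 415, 537, 477 and 847 with DMSO and 791, 1057, 863 and 1452 with alectinib. The groups did not overlap in EA1 and EA2, and in EA3 they did, since DMSO on day 5 was above alectinib on day 1. The fitted change of Psap on the log2 scale was 1.06 (SE 0.15, adjusted p = 0.000189) for EA1, 1.10 (SE 0.15, adjusted p = 0.000134) for EA2 and 0.89 (SE 0.15, adjusted p = 0.00062) for EA3, and EA3 minus EA2 was -0.22 (95% CI -0.66 to 0.22).

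Grn (chr11:102430315-102437048) encodes progranulin, which is cut into granulins in the lysosome. Grn CPM in EA1 was 136, 194, 164 and 139.9 with DMSO and 247, 291, 293 and 274 with alectinib. Grn CPM in EA2 was 183, 201, 372 and 306 with DMSO and 346, 420.5, 661 and 482 with alectinib. Grn CPM in EA3 was 126, 205, 211 and 315 with DMSO and 319.5, 455, 405 and 543 with alectinib. Alectinib was higher on all 12 line and day pairs, without overlap of the groups in EA1 and EA3. The log2 fold change of Grn was 0.81 (SE 0.13, adjusted p = 0.000386) for EA1, 0.87 (SE 0.12, adjusted p = 0.000251) for EA2 and 1.05 (SE 0.13, adjusted p = 7.14e-05) for EA3. Npc2, a small cholesterol carrier of the lumen, rose in EA1 (0.95, SE 0.23, adjusted p = 0.00625) and had 0.08 and 0.15 in EA2 and EA3, and the test between lines was not passed (adjusted p = 0.15). Without day 3 the call in EA1 was lost (adjusted p = 0.0836).

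All 4 proton pump genes rose when averaged over the lines, where 26.6% of all genes did. Atp6v0d1 (chr8:105524465-105566047) encodes the d subunit of the membrane sector. Atp6v0d1 CPM in EA1 was 75.5, 104, 101 and 74.4 with DMSO and 174, 186, 166 and 158 with alectinib. Atp6v0d1 CPM in EA2 was 25.8, 33.1, 45.3 and 33.2 with DMSO and 56.4, 94.4, 83.7 and 99.1 with alectinib. Atp6v0d1 CPM in EA3 was 29.2, 40.1, 38.9 and 51.4 with DMSO and 80.8, 92.9, 88.3 and 91.6 with alectinib. In each line every alectinib library exceeded every DMSO library. On the log2 scale, the fitted difference of Atp6v0d1 was 0.96 (SE 0.15, adjusted p = 0.000384) for EA1, 1.27 (SE 0.15, adjusted p = 6.06e-05) for EA2 and 1.17 (SE 0.15, adjusted p = 0.000112) for EA3, or 1.93, 2.43 and 2.22 times the DMSO mean.

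Atp6v1h (chr1:5070018-5162529) encodes the regulatory H subunit of the cytosolic sector. Atp6v1h CPM in EA1 was 76.98, 73.4, 90.6 and 81.04 with DMSO and 114, 129.7, 103 and 118 with alectinib. Atp6v1h CPM in EA2 was 50.6, 74.8, 65.96 and 52.5 with DMSO and 64.4, 95.4, 89.4 and 116 with alectinib. Atp6v1h CPM in EA3 was 46.4, 48.5, 26.5 and 32.6 with DMSO and 68.7, 77.5, 55.99 and 67.6 with alectinib. The groups overlapped in EA2 and not in EA1 or EA3. Between alectinib and DMSO, the log2 fold change of Atp6v1h was 0.53 (SE 0.16, adjusted p = 0.0213) for EA1, 0.57 (SE 0.16, adjusted p = 0.019) for EA2 and 0.84 (SE 0.16, adjusted p = 0.00172) for EA3. In EA1 the call was lost without day 1, 2 or 5 (adjusted p = 0.0766, 0.213 and 0.0573), and in EA2 without day 2, 3 or 5 (0.0537, 0.0531 and 0.147). Atp6v1a, the catalytic A subunit, rose in EA1 (0.69, SE 0.15, adjusted p = 0.00418) and EA3 (0.73, SE 0.15, adjusted p = 0.00313). The accessory subunit gene Atp6ap1 rose in EA2 (0.56, SE 0.14, adjusted p = 0.00934) and EA3 (0.45, SE 0.14, adjusted p = 0.0233), though not in EA2 without day 2 (0.0702) or day 5 (0.0501) and not in EA3 without day 1, 2 or 3 (0.0977, 0.238 and 0.0762).

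**Figure D3:**
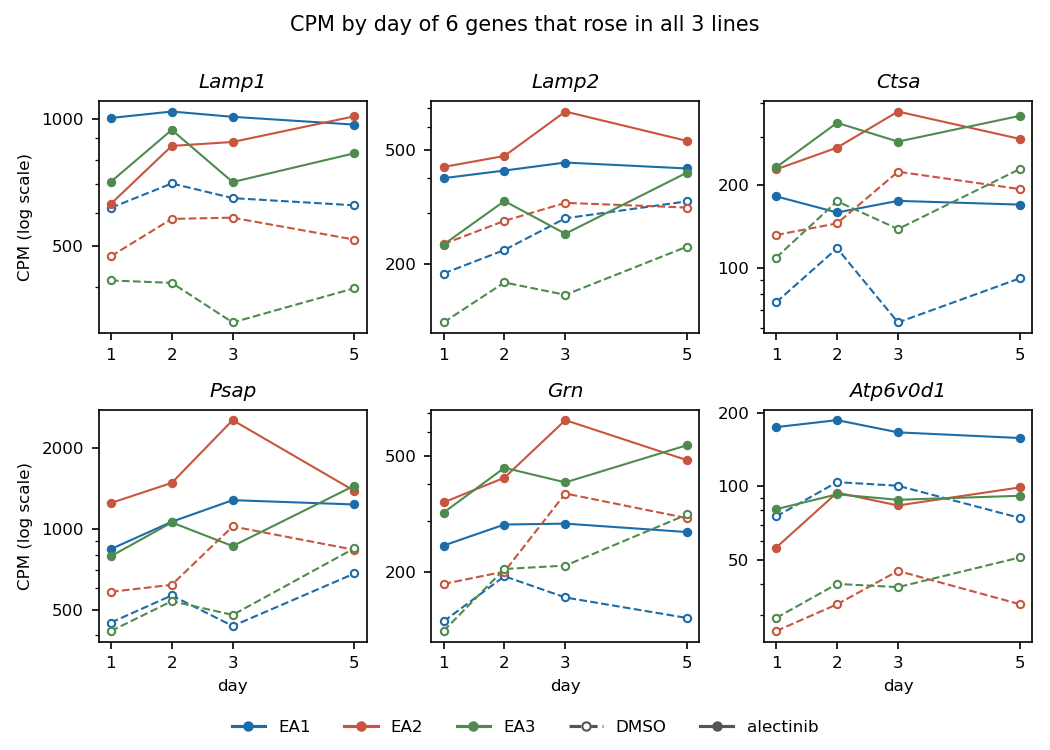
CPM on a log scale (y axis) by day (x axis) of the 6 genes whose rise held in all 3 lines under 12 alternatives to the fit, filter, scaling or days, with DMSO as open points on broken lines and alectinib as filled points, 1 library a point. For Lamp1, Lamp2, Ctsa and Atp6v0d1 the alectinib points of each line lie above all DMSO points of that line.

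All 3 ATG8 genes, which encode the ubiquitin-like proteins of the autophagosome membrane, rose when averaged over the lines, where 26.6% of all genes did. Map1lc3b (chr8:121590361-121598760) is the member most used as a marker of autophagosomes. Map1lc3b CPM in EA1 was 208, 352, 356 and 296 with DMSO and 459, 462, 444 and 393 with alectinib. Map1lc3b CPM in EA2 was 155, 214, 212 and 169 with DMSO and 265, 301, 309 and 283 with alectinib. Map1lc3b CPM in EA3 was 128, 201, 174 and 203 with DMSO and 222, 253, 252 and 266 with alectinib. The groups did not overlap in any line. Fitted by edgeR, the log2 fold change of Map1lc3b was 0.56 (SE 0.14, adjusted p = 0.00943) for EA1, 0.64 (SE 0.14, adjusted p = 0.00589) for EA2 and 0.51 (SE 0.14, adjusted p = 0.0156) for EA3. In EA1 the call was lost without day 1 (adjusted p = 0.0711), and in EA3 without day 2, 3 or 5 (0.0649, 0.0632 and 0.0573). Its relative Map1lc3a rose in EA1 (0.95, SE 0.23, adjusted p = 0.00669) and EA3 (1.10, SE 0.23, adjusted p = 0.00268). Gabarapl1 rose in EA1 (0.91, SE 0.17, adjusted p = 0.00154) and EA2 (0.56, SE 0.17, adjusted p = 0.0315), and the EA2 call was lost without day 1, 2 or 3 (0.0923, 0.138 and 0.157). Without the block of line and day, neither call of Gabarapl1 held (adjusted p = 0.0609 for EA1 and 0.227 for EA2). The antisense gene 1700101I11Rik shares 28.3% of its exon bases.

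Ulk1 (chr5:110784488-110810097) encodes the kinase that starts autophagosome formation and that mTORC1 restrains. Ulk1 CPM in EA1 was 71.1, 55.4, 64.7 and 66.4 with DMSO and 123, 109.7, 108 and 92.7 with alectinib. Ulk1 CPM in EA2 was 55.97, 45.6, 50.3 and 58.2 with DMSO and 95.8, 74.8, 87.1 and 72.3 with alectinib. Ulk1 CPM in EA3 was 70.1, 55.05, 87.6 and 77.4 with DMSO and 93.2, 109.6, 97.8 and 92.8 with alectinib. All 4 alectinib libraries were above all 4 DMSO libraries in each line. The fitted change of Ulk1 on the log2 scale was 0.75 (SE 0.15, adjusted p = 0.0022) for EA1, 0.65 (SE 0.15, adjusted p = 0.00683) for EA2 and 0.46 (SE 0.15, adjusted p = 0.0335) for EA3. The EA2 call was lost without day 1 (adjusted p = 0.0557) or day 3 (0.0532), and that in EA3 without any single day (0.104, 0.318, 0.0542 and 0.0511 without days 1, 2, 3 and 5).

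Wipi1, which reads the lipid mark of the nascent membrane, rose in EA1 (0.65, SE 0.22, adjusted p = 0.0342) and EA3 (0.60, SE 0.21, adjusted p = 0.0446). The EA1 call was lost without day 1, 2 or 3 (0.162, 0.108 and 0.157) and the EA3 call without any single day (0.113, 0.12, 0.0959 and 0.0628). Becn1, a subunit of the lipid kinase complex that makes this mark, rose in EA3 (0.40, SE 0.13, adjusted p = 0.0288), but not without day 1, 2 or 5 (0.152, 0.178 and 0.0828). Cntd1 on the other strand shares 43.9% of the exon bases of Becn1. Atg7, the activating enzyme of the conjugation system, rose in EA1 (0.52, SE 0.15, adjusted p = 0.0159), and not there without day 1, 2 or 5 (0.086, 0.142 and 0.0708). Atg5, part of the conjugating enzyme, had -0.02 for EA1, -0.18 for EA2 and 0.03 for EA3, and passed in none. The counting of strand is not stated, and reads of a gene and its antisense partner cannot be told apart without it.

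Of the cargo receptors, Optn, known from the clearance of mitochondria and bacteria and singled out after its values were seen, had the largest log2 fold change of the 37 genes in any 1 line. Optn CPM in EA1 was 64.1, 74.1, 68.4 and 114 with DMSO and 98.5, 82.4, 81.4 and 79.4 with alectinib. Optn CPM in EA2 was 35.6, 34.5, 57.9 and 42.9 with DMSO and 120.2, 107, 145 and 119.7 with alectinib. Optn CPM in EA3 was 20.8, 31.5, 50.01 and 64.4 with DMSO and 56.1, 50.7, 54.1 and 41.2 with alectinib. In EA2 the groups did not overlap, and in EA1 and EA3 they did. The log2 fold change of Optn was 0.13 (SE 0.26, adjusted p = 0.731) for EA1, 1.55 (SE 0.26, adjusted p = 0.000829) for EA2 and 0.39 (SE 0.27, adjusted p = 0.277) for EA3. The test between lines missed the threshold (adjusted p = 0.0542), with EA2 minus EA1 at 1.42 (95% CI 0.64 to 2.21, adjusted p = 0.0361). Sqstm1, the receptor also known as a target of stress signalling, passed in no line (-0.20 for EA1, 0.60 for EA2 and 0.18 for EA3), and Mrnip on the other strand shares 17.3% of its exon bases.

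**Figure D4:**
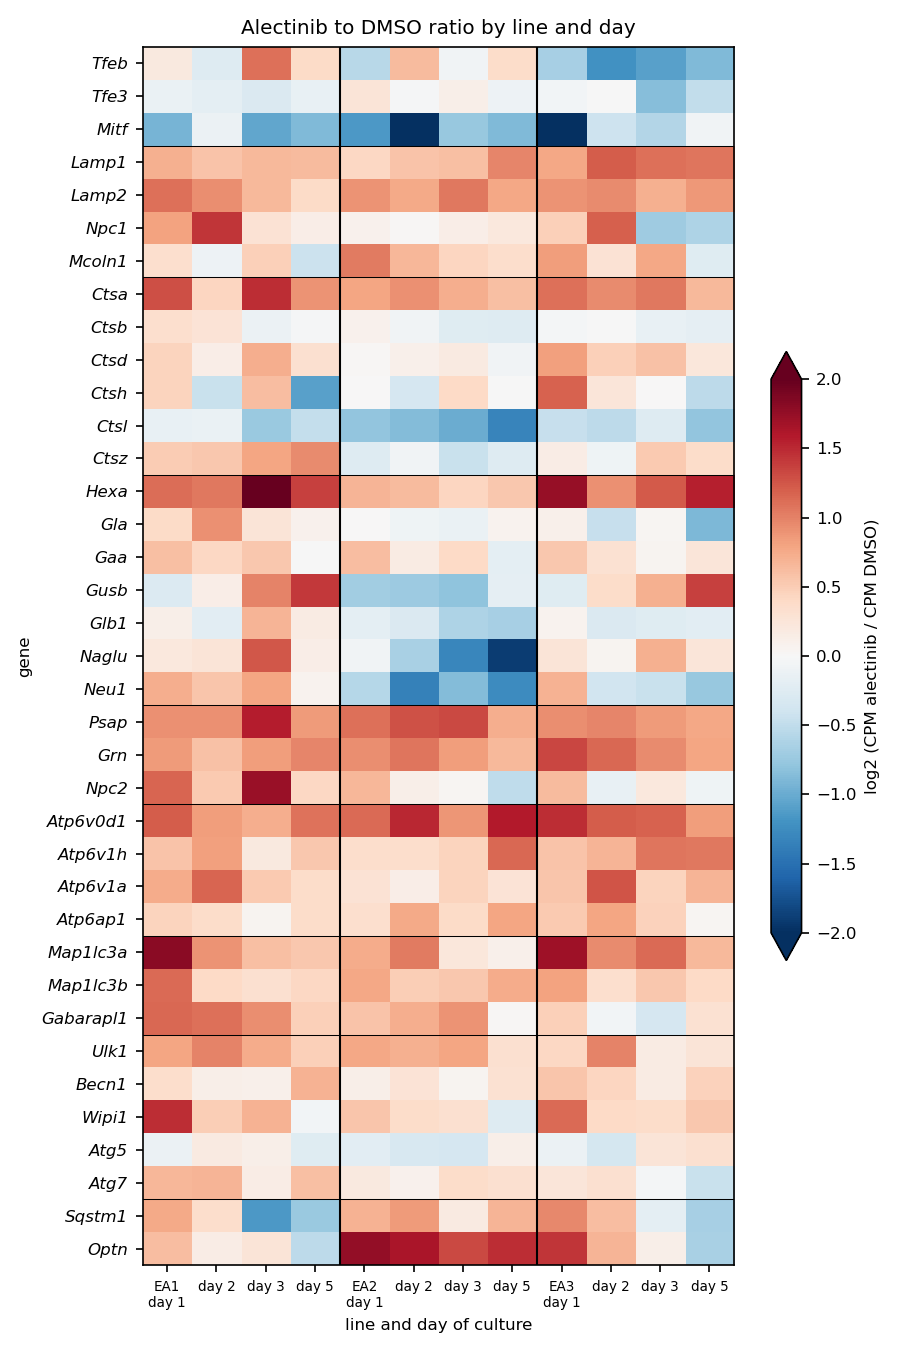
Log2 ratio of alectinib CPM to DMSO CPM for each of the 37 genes (rows) on each day in each line (columns), where red is higher and blue lower with alectinib and ratios beyond 2 take the end colours. The rows of Lamp1, Lamp2, Ctsa, Hexa, Psap, Grn, Atp6v0d1, Atp6v1h, Atp6v1a, Atp6ap1, Map1lc3a, Map1lc3b, Ulk1 and Becn1 are red in all 12 columns.

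Day by day, the median log2 ratio of the 37 genes lay above that of all genes on each of the 12 line and day pairs. In EA1 it was 0.62, 0.43, 0.62 and 0.37 on days 1, 2, 3 and 5, beside 0.06, 0.05, 0.12 and 0.03 over all genes. In EA2 it was 0.33, 0.27, 0.32 and 0.21, beside 0.03, 0.01, 0.00 and 0.04. In EA3 it was 0.56, 0.36, 0.27 and 0.24, beside 0.04, -0.01, 0.03 and 0.05. Between 22 and 32 of 37 genes were above 0 on each pair, where 49.6% to 54.7% of all genes were.

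The change of the effect with time was tested as 1 slope, shared by the lines, per doubling of days. Of the 37 genes 1 had an effect that rose with days, where 1.65% of all genes did, and 3 had an effect that fell, where 2.41% did. Gusb gained 0.54 per doubling (SE 0.11, adjusted p = 0.0225). Its daily log2 ratios were -0.28, 0.12, 0.99 and 1.41 for EA1, -0.69, -0.72, -0.81 and -0.17 for EA2 and -0.24, 0.36, 0.71 and 1.37 for EA3, so that they ran from below to above 0 in EA1 and EA3 and stayed below 0 in EA2. The slope of Map1lc3a was -0.43 (SE 0.10, adjusted p = 0.0347), with daily log2 ratios of 1.80, 0.90, 0.60 and 0.54 for EA1, 0.74, 1.05, 0.23 and 0.10 for EA2 and 1.70, 0.94, 1.13 and 0.64 for EA3. For Optn the slope was -0.49 (SE 0.11, adjusted p = 0.036) and for Wipi1 -0.39 (SE 0.10, adjusted p = 0.044). Of these 4 calls none held without day 1, 2 or 5, which left 0 genes rising and 0 falling among the 37, whereas without day 3 there were 1 and 7.

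In DMSO alone several of the 37 genes rose with days. Per doubling of days 15 rose, where 8.29% of all genes did, and 1 fell, where 7.17% did. The 15 were Lamp2, Npc1, Mcoln1, Ctsb, Ctsd, Hexa, Gaa, Neu1, Psap, Npc2, Map1lc3a, Gabarapl1, Wipi1, Sqstm1 and Optn, with slopes from 0.30 (Psap) to 0.67 (Hexa). Sqstm1, at 487, 768, 2221 and 1388 CPM for EA1, 533, 661, 1241 and 653 for EA2 and 322, 466, 913 and 1128 for EA3, had a slope of 0.66 (SE 0.17, adjusted p = 0.0206). Gusb was the gene that fell (log2 -0.51, SE 0.10, adjusted p = 0.00848), with DMSO CPM of 88.5, 70.2, 36.8 and 28.95 for EA1, 135, 126, 82.00 and 96.7 for EA2 and 118, 103, 66.6 and 50.3 for EA3. In all 3 lines its lowest DMSO value was on day 3 or 5. Without day 1 the numbers were 0 rising and 0 falling, without day 2 they were 7 and 1, without day 3 they were 16 and 1, and without day 5 they were 4 and 0. The DMSO libraries enter both these slopes and the alectinib effects, so that the 2 sets of values are not independent.

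The lines differed at rest as well. Of the 37 genes 25 differed between lines in the 12 DMSO libraries, where 55.0% of all genes did. Hexa was lowest in EA1 (3.92 ± 1.45 CPM, SD, n = 4 days), higher in EA3 (17.8 ± 11.9) and highest in EA2 (74.6 ± 31.5), and EA2 minus EA1 was 4.22 on the log2 scale (95% CI 3.27 to 5.18, adjusted p = 1.33e-05). Ctsh was lowest in EA2 (1.94 ± 0.731), then EA1 (14.2 ± 7.98), then EA3 (50.9 ± 36.1), a log2 difference of 4.51 between EA3 and EA2 (95% CI 3.76 to 5.27, adjusted p = 9.12e-07). Both genes are singled out after their values were seen. Ctsz was lower in EA1 (42.2 ± 6.58) than in EA2 (171 ± 25.4) and EA3 (211 ± 53.2), and EA3 minus EA2 did not pass (0.29, 95% CI -0.09 to 0.67). Tfeb was lowest in EA2 (6.60 ± 2.51), then EA1 (14.5 ± 5.24) and highest in EA3 (30.03 ± 9.73), each pair past the threshold. Atp6v0d1 was higher in EA1 (88.7 ± 15.9) than in EA2 (34.4 ± 8.09) and EA3 (39.9 ± 9.11), with log2 differences of -1.38 for EA2 minus EA1 and -1.16 for EA3 minus EA1, at adjusted p of 8.6e-05 and 0.000476. Psap, Grn, Ulk1, Tfe3, Ctsb and Ctsd were among the 12 that did not pass.

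Genes of the same pathways outside the 37 were counted from lists that were, like the 37, drawn up by name. Earlier results of these data were known at that point, so that the lists are not independent of them. Of all genes tested, 19.0%, 13.0% and 17.5% rose and 14.6%, 11.3% and 15.1% fell in EA1, EA2 and EA3, with medians of 0.07, 0.00 and 0.07. Averaged over the lines 26.6% of all genes rose and 23.5% fell, and each count is to be read against these shares. Of 34 other lysosomal hydrolases and their activators that were tested, 20, 16 and 25 rose with alectinib in the lines in order, and 0, 3 and 1 fell, with median log2 fold changes of 0.69, 0.53 and 0.69. The average over the lines had 25 rising and 2 falling. Ctsf, a cysteine protease, had the largest rise averaged over the lines (2.32, SE 0.23, adjusted p = 3.63e-06), from 0.407 ± 0.244 to 2.08 ± 1.02 CPM in EA1 (SD, n = 4 days), but on few reads, with 1 to 5 counts a library in EA1 with DMSO, 7 to 10 in EA2 and 2 to 15 in EA3. Lipa, the acid lipase, followed at 1.59 (SE 0.18, adjusted p = 9.5e-06). The falls were those of Ctsc, the activator of serine proteases (-0.66, SE 0.09, adjusted p = 5.65e-05), and Galns, a sulfatase of keratan sulfate (-0.27, SE 0.10, adjusted p = 0.0298). Of 37 listed hydrolases, Acp5, Ctsk and Ctss did not pass the filter on low counts.

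Of 23 other lysosomal membrane proteins and transporters tested, 11, 7 and 12 rose in EA1, EA2 and EA3, and 0, 2 and 0 fell, and 13 rose and 1 fell when averaged. Gpnmb, a glycoprotein known from pigment cells and macrophages, rose most (1.43, SE 0.28, adjusted p = 0.000718), followed by the cystine exporter Ctns (1.31, SE 0.13, adjusted p = 3.64e-06), and Laptm4b fell (-0.28, SE 0.07, adjusted p = 0.00663). Of 15 other V-ATPase subunits, 3, 5 and 4 rose and 1, 0 and 0 fell, with medians of 0.09, 0.38 and 0.38. For the average, 7 of the 15 rose. Atp6v0e, a small membrane subunit, rose in each line (0.84 for EA1, 0.78 for EA2 and 0.68 for EA3, and 0.77, SE 0.12, adjusted p = 0.000115 averaged). Atp6v0a4, a tissue-restricted form of the a subunit, was 3.36 ± 2.06 CPM in EA2 with DMSO and 5.74 ± 0.902 with alectinib. In EA1 and EA3 it was close to 0 with DMSO (0.0323 ± 0.0646 and 0.0778 ± 0.0920 CPM) and at 1.01 ± 0.213 and 1.73 ± 0.448 with alectinib.

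The other core autophagy machinery was mixed. Of 36 genes, 8, 13 and 10 rose in EA1, EA2 and EA3 and 4, 2 and 5 fell, with medians of 0.12, 0.30 and 0.16. The averaged effect passed for 16 rising and 6 falling genes. Ulk2, the paralog of Ulk1, rose in each line (0.90 for EA1, 1.19 for EA2 and 1.19 for EA3, and 1.09, SE 0.09, adjusted p = 4.32e-07 averaged), and so did the protease Atg4a, which primes ATG8 proteins (averaged 0.76, SE 0.11, adjusted p = 5.14e-05). Atg9b, a lipid scramblase of the isolation membrane, and Tecpr1, a tether of autophagosomes and lysosomes, fell when averaged over the lines (-2.36, SE 0.50, adjusted p = 0.00161 and -1.26, SE 0.15, adjusted p = 1.1e-05). Of 12 other selective autophagy receptors, 3, 2 and 4 rose and 1, 0 and 2 fell. Averaged over the lines, 6 rose and 1 fell. Calcoco1 and Tex264, both receptors for the endoplasmic reticulum, rose in each line (averaged 1.15, SE 0.21, adjusted p = 0.000466 and 0.68, SE 0.09, adjusted p = 2.9e-05), while Phb2, an inner mitochondrial membrane protein, fell (-0.50, SE 0.07, adjusted p = 3.02e-05).

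Of 21 genes that control MiT factors at the lysosome, 3, 2 and 3 rose and 3, 2 and 1 fell, with medians of 0.05, 0.26 and 0.27. Averaged over the lines, 8 of the 21 rose and 2 fell. For these and for the sorting genes that follow, 19.0%, 13.0% and 17.5% of all genes rose and 14.6%, 11.3% and 15.1% fell. The Ragulator subunits Lamtor4 and Lamtor3 rose when averaged over the lines (0.46, SE 0.09, adjusted p = 0.000589 and 0.43, SE 0.07, adjusted p = 0.000299). Rptor, the mTORC1 scaffold, and Ppp3cb, a catalytic subunit of the phosphatase calcineurin, fell (-0.41, SE 0.09, adjusted p = 0.00147 and -0.40, SE 0.07, adjusted p = 0.000343). Of 12 mannose 6-phosphate and sorting genes, 1, 0 and 3 rose and 1, 0 and 1 fell. When averaged, 6 of the 12 rose. Sort1, a sorting receptor of the Golgi that also binds progranulin and prosaposin, rose in EA1 (2.66, SE 0.42, adjusted p = 0.000492) and EA3 (1.84, SE 0.40, adjusted p = 0.00359), had -0.45 (SE 0.48, adjusted p = 0.538) in EA2, and differed between lines (adjusted p = 0.024), though not without day 2, 3 or 5 (0.0824, 0.0609 and 0.115). Nagpa, which uncovers the mannose 6-phosphate tag, rose when averaged (0.59, SE 0.17, adjusted p = 0.0109). In EA2, 0 of the 12 passed in either direction by edgeR or by DESeq2, and 3 had an unadjusted p under 0.05 by edgeR.

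**Figure D5:**
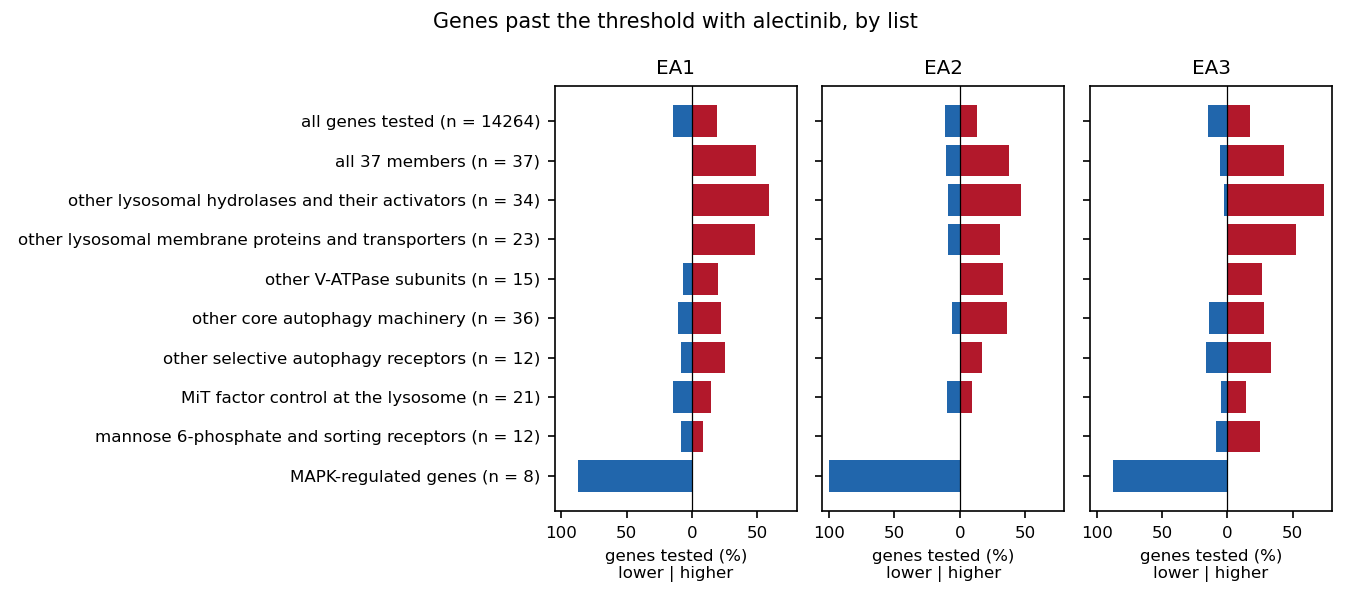
Percent of genes tested (x axis) that rose (red, to the right) or fell (blue, to the left) with alectinib in EA1, EA2 and EA3, for all genes, the 37 genes and 8 further lists (y axis, with the number tested). The hydrolase list holds 20, 16 and 25 rising genes of 34, and the MAPK-regulated list 7, 8 and 7 falling genes of 8.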

How the data were processed

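RNA of EA1, EA2 and EA3 was made into libraries with a stranded poly(A) kit and sequenced in pairs. The deposited values are raw counts per gene: per the methods and labels, the authors checked reads with FastQC, trimmed them with bbduk and aligned and counted them with STAR on mm10. The gene annotation and the strand counted are not given in the sources used here. Of 55415 rows, 24 named by a date or number in place of a gene (0.129 to 0.201% of counts) were left out. Counts were analysed with edgeR 4.0.16 in R 4.3.3, with TMM factors (0.889 to 1.085), filterByExpr and robust quasi-likelihood fits. The fit held 12 blocks, each a line and day, and an alectinib effect per line; slopes used log2 of the day, and DMSO libraries were fitted alone for levels and slopes without drug. Adjusted p is by Benjamini-Hochberg over 14264 genes. CPM used the TMM-scaled library size. Standard errors are those of the fitted log2 fold change. Nothing says that libraries came from separate cultures, so p-values measure only the spread between these samples, which may be technical.

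DMSO and alectinib libraries of a line share the labelled day, which is why the block was used. Their deviations from the group means correlated at -0.300 to 0.549 over the 12 pairs. Alternatives were DESeq2 1.42.0, other scalings and filters, no block, lines alone, all 26 libraries, days left out and a larger fold. The models were tested on simulated data with 200 planted 2-fold changes. Of these, 79, 112 and 62 were recovered in EA1, EA2 and EA3, and 161 in the average over the lines. A gene that did not pass in a line may therefore still have changed by such an amount. The members and lists were chosen with earlier results of these data known. Values in every library are given for the 3 MiT factors, for members past the threshold in all 3 lines or differing between lines, and for the 5 largest mean effects. From each list the 2 largest rises and falls averaged over the lines were named.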

Additional observations from a re-analysis of the deposited data

Results flagged for a closer look

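Tfeb (adjusted p = 0.044), Ctsz (0.0194), Naglu (0.047) and Neu1 (0.021) responded to alectinib by amounts that differed from line to line in edgeR's quasi-likelihood test, 4 of 37 genes, where 6.84% of all genes did. None of the 4 passed without the block of line and day, with all 26 libraries, or without day 2, 3 or 5. Over the other lists, it differed for 2 of 34 hydrolases, 2 of 23 membrane genes, 1 of 15 V-ATPase subunits and 1 of 36 core autophagy genes. It did so for 1 of 12 receptors, 0 of 21 MiT control genes and 1 of 12 sorting genes. The effect also differed for 5 of 8 MAPK-regulated genes, 3 of 7 epithelial markers and 2 of 6 fibroblast markers. Of the genes named from the lysosome and autophagy lists, 3 differed. They were Ctsc (adjusted p = 0.00646), with -0.06 for EA1, -1.46 for EA2 and -0.46 for EA3 on the log2 scale, Laptm4b (0.0319), with 0.14 for EA1, -0.71 for EA2 and -0.26 for EA3, and Sort1 (0.024), with 2.66 for EA1, -0.45 for EA2 and 1.84 for EA3. Each of these 3 was lost without day 3 or day 5 (adjusted p = 0.0593 and 0.0539 for Ctsc, 0.136 and 0.109 for Laptm4b, and 0.0609 and 0.115 for Sort1).

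The pair labelled EA3 day 7 was used only in the alternative fit with all 26 libraries. In it 22 of the 37 genes were higher with alectinib and 15 lower, with a median log2 ratio of 0.19, where 50% of 14264 genes were higher. The DMSO library of this pair had a mean correlation of 0.957 with EA2 and 0.870 with EA3, and the alectinib library 0.973 and 0.861. It is 1 pair and gives no test.

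By Dixon's test, which by chance marks about 1 in 20 groups, 3 of the 222 groups of 4 days of the 37 genes held a library that stood apart. They were Ctsh in EA3 with alectinib, with 21.2 CPM on day 3 as the lowest, Gla in EA2 with alectinib, with 23.3 CPM on day 1 as the lowest, and Optn in EA1 with alectinib, with 98.5 CPM on day 1 as the highest. Of 18 groups of other genes whose values are given, 3 did so, namely Dcn in EA3 with alectinib (48.4 CPM on day 5), Csf1r in EA3 with alectinib (6.87 CPM on day 3) and Atp6v0a4 in EA1 with DMSO (0.129 CPM on day 5, the other days being at 0).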

How the results depend on the processing

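No gene of the 37 changed direction under an alternative where it had passed the threshold. Leaving out 1 day in all lines gave 14 to 16 rising genes for EA1, 9 to 11 for EA2 and 10 to 14 for EA3, with 0 to 0, 2 to 3 and 1 to 2 falling. It gave 18 to 21 and 2 to 3 averaged over the lines, 0 to 3 differing between lines, 0 to 1 and 0 to 7 with a rising or falling effect over days, 19 to 24 differing between lines in DMSO, and 0 to 16 and 0 to 1 rising or falling with days in DMSO. Without the replicate block of line and day, 1 gene fell in EA3, 1 differed between lines, 0 and 0 had a rising or falling slope, and 16 differed between lines in DMSO. Without the block the calls of Hexa, Ctsd, Mcoln1, Npc2, Gabarapl1, Wipi1, Atg7, the fall of Ctsl in EA3 and that of Mitf in EA2 were lost in at least 1 line. DESeq2 gave 1 falling gene in EA1, 7 differing between lines and 7 falling slopes. With no filter on low counts 7 differed between lines and 1 slope fell. With at least 10 counts in every library 1 gene fell on average, Mitf not being tested. With all 26 libraries 4 fell on average and 0 differed between lines. Each line fitted alone gave 10 rising and 1 falling in EA3. A log2 change of at least 1 left 3, 3 and 5 rising and 0, 2 and 0 falling in EA1, EA2 and EA3, and 3 and 0 averaged, where 11.7%, 6.67%, 9.91% and, averaged, 9.90% of all genes rose and 5.95%, 6.59%, 7.09% and 6.16% fell. At least 0.5 per doubling left 0 falling slopes and 3 rising in DMSO. Library size alone moved the median of all genes to 0.15 for EA1, -0.04 for EA2 and 0.18 for EA3, with 24, 13 and 17 of the 37 rising and 0, 5 and 2 falling. The causes of these shifts were not tested.

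Mitf, at 1 to 62 counts a library, and Hexa in EA1 with DMSO, at 22 to 45, rest on few reads, as does Ctsf. With 1 library a day, error within a day could not be measured.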
